A study of Homo sapiens with 12 samples.

Results

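The genes described here encode the enzymes of cholesterol and fatty acid synthesis and the SREBP machinery that controls them. They were chosen by name, as a list of 33 symbols, with earlier results of these data known. Counts of them set beside the share of all genes are therefore descriptive. Of the 33, 30 were measured among the 17687 named genes of the array table, while FDFT1, FADS1 and LPIN1 were not analysed here. The 30 comprise 4 SREBP regulators, 7 genes of the mevalonate arm, 10 genes of the arm leading to cholesterol, 1 sterol carrier and 8 genes of fatty acid synthesis. Total RNA of HCT 116 and DLD1 cells, established human colorectal cancer lines, was read on 12 single-colour Affymetrix arrays, 3 in each of 4 groups. The groups were HCT 116 cells given siBRG1, an siRNA against SMARCA4 (also BRG1, a motor subunit of SWI/SNF complexes, which move nucleosomes), HCT 116 cells given siControl, DLD1 cells given siBRG1 and DLD1 cells given siControl. The comparison addresses what BRG1 suppression does to gene expression in these cancer cells. Neither the siRNA sequences nor the length of treatment is stated. The labels are also silent on whether the arrays of a group represent separate cultures, so each p-value reflects the spread among these arrays alone, which may be technical. The source names of 4 HCT 116 arrays carry a different number from their titles, and those arrays were grouped by title.

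Cholesterol is built from acetyl-CoA through mevalonate, isoprenoid units, squalene and lanosterol, and fatty acids are built from the same acetyl-CoA by carboxylation, chain growth and desaturation. The SREBP transcription factors sit as precursors in the membrane of the endoplasmic reticulum, bound to the escort protein SCAP. When membrane sterol is low, SCAP carries them to the Golgi, proteases release the active part, and it binds sterol regulatory elements in the promoters of most of these genes, often beside NF-Y and Sp1. When sterol is high, INSIG proteins hold SCAP back. The product of SREBF2 is known mainly for activating the sterol genes, and that of SREBF1 mainly for the fatty acid genes.

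All values are log2 array levels, and a level of one gene is not set against that of another. SMARCA4 measured 6.78, 6.39 and 7.03 in HCT 116 siBRG1 and 10.12, 10.15 and 9.59 in HCT 116 siControl. In DLD1 it measured 6.29, 6.55 and 6.31 in siBRG1 and 10.31, 9.95 and 10.29 in siControl. The target was thus lower on every siBRG1 array than on any siControl array of its line, with log2 changes of -3.22 ± 0.21 in HCT 116 and -3.80 ± 0.21 in DLD1 (limma SE, adjusted p of 1.14e-06 and 4.56e-07). Epithelial EPCAM had group means between 15.7 and 16.7, and the intestinal factor CDX2 averaged 9.37 and 9.36 in HCT 116 siBRG1 and siControl and 13.1 and 12.9 in DLD1 siBRG1 and siControl. The defining markers of fibroblasts (COL1A1), leukocytes (PTPRC), endothelium (PECAM1) and adipocytes (ADIPOQ) averaged between 2.79 and 5.02 in every group, below the median gene level of 6.86. Of the 11 measured colorectal epithelial markers, 5 in HCT 116 and 4 in DLD1 also lay below that level. Marker lists of fibroblasts (9 measured genes, group means between 2.91 and 8.62), immune cells (9 genes, 2.97 to 7.05), endothelium (8 genes, 2.85 to 10.2) and adipocytes (6 genes, 2.72 to 5.90) were mostly below it. After siBRG1 in HCT 116, 1 of 9 fibroblast and 1 of 9 immune markers were called higher (2.82% of all genes) and none of the other lists, in DLD1 none, and their part in the results was not tested. All 30 lipid genes had a mean over the 12 arrays above the median level. 

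Promoter sequence was available for 27 of the 30 genes in RefSeq (GRCh38.p14), as the 250 bases before and 50 bases after each annotated start. The classical sterol regulatory element of the LDL receptor, searched as TCACNCCAC on both strands, was found in 1 of the 27 genes, SREBF2, and in 1.39% of all 27305 genes with a promoter. The NF-Y box CCAAT was found in 22 of 27 genes (81.5%), against 39.7% of all genes, and the Sp1 box GGGCGG in 25 of 27 (92.6%), against 48.3%. The background includes noncoding genes, no test was made, and a match is only a stretch of letters. The 6 promoters below belong to the genes whose level passed the test as lower after siBRG1 on average over both lines. They lie on GRCh38.p14 at chr22:41832855-41833154 (plus strand) for SREBF2, chr5:43313363-43313662 (minus) for HMGCS1, chr10:1048837-1049136 (minus) for IDI1, chr1:155308616-155308915 (plus) for FDPS, chrX:48521558-48521857 (plus) for EBP and chr4:110198566-110198865 (minus) for ELOVL6. Each is printed 5′ to 3′ on the gene's strand, with matches to TCACNCCAC and CCAAT on either strand in capitals, so that ATTGG is a CCAAT on the other strand.
SREBF2: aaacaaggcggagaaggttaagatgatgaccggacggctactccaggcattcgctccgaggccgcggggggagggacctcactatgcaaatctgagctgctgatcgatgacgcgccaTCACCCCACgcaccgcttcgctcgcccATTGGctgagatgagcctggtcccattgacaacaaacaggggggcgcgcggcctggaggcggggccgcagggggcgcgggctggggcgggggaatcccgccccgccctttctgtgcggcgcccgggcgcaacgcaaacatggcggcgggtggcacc
HMGCS1: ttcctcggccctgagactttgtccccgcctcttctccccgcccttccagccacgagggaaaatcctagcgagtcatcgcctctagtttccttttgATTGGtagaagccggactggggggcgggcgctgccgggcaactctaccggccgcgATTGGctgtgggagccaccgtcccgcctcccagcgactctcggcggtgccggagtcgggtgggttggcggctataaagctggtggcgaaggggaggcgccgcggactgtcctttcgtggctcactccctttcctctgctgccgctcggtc
IDI1: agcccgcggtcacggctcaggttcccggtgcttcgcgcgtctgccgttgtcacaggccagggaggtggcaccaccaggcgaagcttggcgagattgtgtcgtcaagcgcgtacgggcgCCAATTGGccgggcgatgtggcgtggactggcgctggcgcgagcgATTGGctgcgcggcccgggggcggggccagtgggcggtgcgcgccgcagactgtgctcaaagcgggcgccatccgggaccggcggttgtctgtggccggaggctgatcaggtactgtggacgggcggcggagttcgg
FDPS: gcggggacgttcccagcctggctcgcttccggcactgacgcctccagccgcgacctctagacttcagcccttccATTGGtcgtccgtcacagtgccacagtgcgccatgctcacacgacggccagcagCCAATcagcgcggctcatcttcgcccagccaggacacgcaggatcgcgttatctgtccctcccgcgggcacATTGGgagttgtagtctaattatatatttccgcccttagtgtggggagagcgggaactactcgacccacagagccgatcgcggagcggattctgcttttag
EBP: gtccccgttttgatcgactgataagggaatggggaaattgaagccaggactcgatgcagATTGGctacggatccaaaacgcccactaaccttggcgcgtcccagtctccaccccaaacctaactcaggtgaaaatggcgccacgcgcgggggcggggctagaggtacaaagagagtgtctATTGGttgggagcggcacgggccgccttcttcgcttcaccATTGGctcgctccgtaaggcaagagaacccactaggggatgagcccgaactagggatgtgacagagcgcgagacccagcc
ELOVL6: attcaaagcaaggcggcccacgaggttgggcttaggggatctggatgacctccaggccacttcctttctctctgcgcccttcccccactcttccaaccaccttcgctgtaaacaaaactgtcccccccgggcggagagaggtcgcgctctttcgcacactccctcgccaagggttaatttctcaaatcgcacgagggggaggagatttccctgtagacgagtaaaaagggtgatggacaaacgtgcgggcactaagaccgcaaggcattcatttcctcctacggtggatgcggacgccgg
The SREBF2 promoter holds TCACCCCAC on the gene's strand at position -133 from the start and a CCAAT on the other strand at position -106. RefSeq lists 3 promoters for IDI1, 2 for HMGCS1 and 1 for each of the other genes, and the one printed is that with the most matches to the 3 motifs. In the printed promoters HMGCS1 has 2 CCAAT matches and IDI1, FDPS and EBP have 3 each, with overlapping matches on opposite strands counted separately, and ELOVL6 has 0. All 6 hold at least 1 match to GGGCGG, which is not capitalised.

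In HCT 116 cells SREBF2, FDPS and ELOVL6 fell after siBRG1, 27 of the 30 genes had a lower mean, and none passed the test as higher. SREBF2 measured 9.25, 8.74 and 8.90 in HCT 116 siBRG1 and 9.90, 10.44 and 10.42 in HCT 116 siControl. The groups did not overlap, and SREBF2 fell 2.44-fold (log2 change -1.29, SE 0.24, limma adjusted p = 0.00469). In RNA of whole cultures, fewer expressing cells and less RNA per cell cannot be told apart. INSIG1, a target of SREBP and its brake, measured 7.84, 8.17 and 7.90 in siBRG1 and 9.17, 9.65 and 10.36 in siControl. Its log2 change of -1.76 (SE 0.56) was the lowest among the 30 genes in HCT 116 and the groups did not overlap, but it did not pass the test (limma adjusted p = 0.0768). SREBF1 measured 9.76, 9.45 and 9.44 in siBRG1 and 10.01, 10.30 and 10.23 in siControl, also without overlap (change -0.63, SE 0.32, limma adjusted p = 0.295). SCAP, the escort, overlapped between the groups, with a change of -0.01 and a 95% interval of -0.43 to 0.40.

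**Figure D1:**
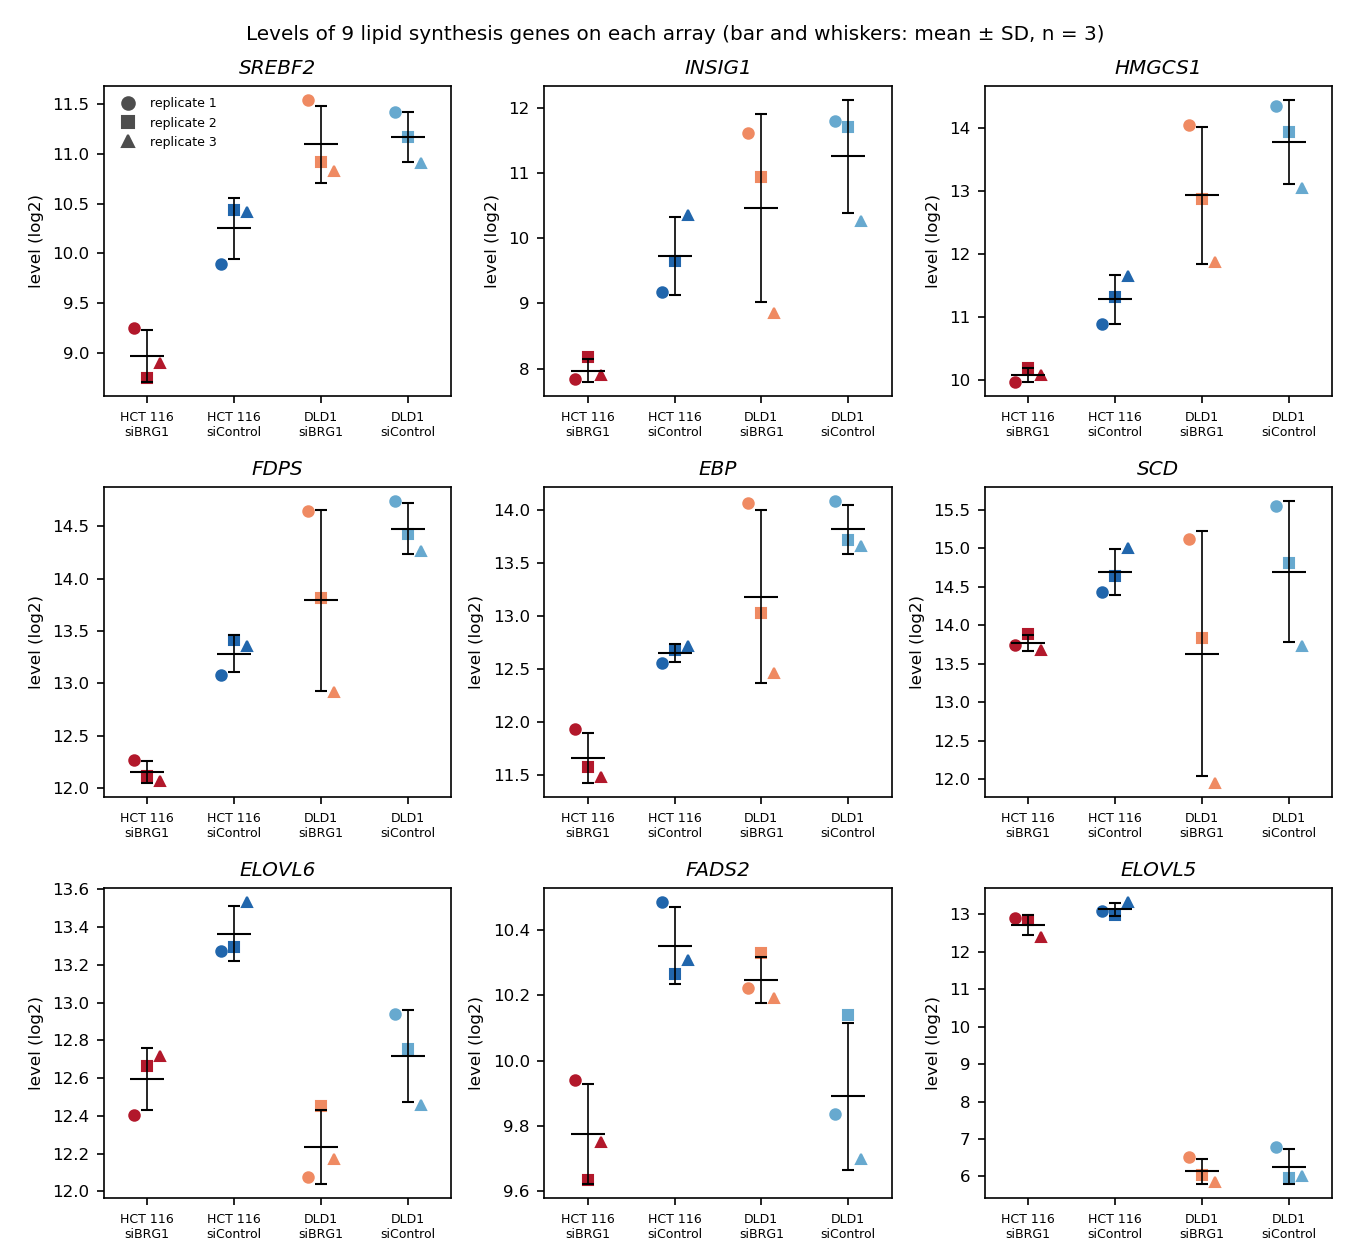
Log2 levels (y axis) of 9 of the genes on each array, by group on the x axis, with the marker shape giving the replicate number and the bar and whiskers the mean ± SD (n = 3). SREBF2, INSIG1, HMGCS1, FDPS and EBP show HCT 116 siBRG1 groups below HCT 116 siControl without overlap, while in DLD1 siBRG1 the array numbered 1 is high and that numbered 3 low.

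In the mevalonate arm of HCT 116, 1 of 7 genes passed the test as lower (4.13% of all genes), and 5 of 7 were lower without overlap between the groups (13.0% of all genes). FDPS, which makes farnesyl diphosphate, measured 12.27, 12.11 and 12.07 in HCT 116 siBRG1 and 13.08, 13.41 and 13.35 in HCT 116 siControl. Every siBRG1 array lay below every siControl array, and FDPS fell 2.19-fold (log2 change -1.13, SE 0.31, limma adjusted p = 0.0430). HMGCS1, which makes HMG-CoA, measured 9.97, 10.18 and 10.08 in siBRG1 and 10.88, 11.31 and 11.65 in siControl. IDI1, the isopentenyl diphosphate isomerase, measured 10.65, 11.45 and 10.98 in siBRG1 and 11.90, 12.60 and 13.09 in siControl. Both were without overlap, but neither passed the test, with changes of -1.21 (SE 0.43) for HMGCS1 and -1.50 (SE 0.49) for IDI1 and limma adjusted p-values of 0.113 and 0.0837. The thiolase ACAT2 (-0.78) and mevalonate kinase MVK (-1.02) were likewise lower on every siBRG1 array without passing. The decarboxylase MVD (-0.79) overlapped between the groups. Phosphomevalonate kinase PMVK differed in sign from the rest of the arm, with 9.47, 8.55 and 8.86 in siBRG1 and 8.10, 8.54 and 8.68 in siControl, overlapping groups and a change of 0.52 (SE 0.26, limma adjusted p = 0.286).

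From squalene to cholesterol, 0 of 10 genes passed the test in HCT 116 (4.13% of all genes were called lower). An unadjusted limma p under 0.05 was found for 4, all lower (11.3% of all genes), and 4 were lower without overlap (13.0% of all genes). EBP, the sterol isomerase, measured 11.93, 11.57 and 11.48 in HCT 116 siBRG1 and 12.55, 12.67 and 12.72 in HCT 116 siControl (change -0.99, SE 0.30, limma adjusted p = 0.0669). DHCR7, a reductase late in the pathway, measured 12.79, 12.52 and 12.33 in siBRG1 and 13.44, 13.60 and 13.86 in siControl (change -1.09, SE 0.37, limma adjusted p = 0.100). In both genes no siBRG1 array reached the lowest siControl array. Lanosterol synthase LSS (-0.79) and the methyl oxidase MSMO1 (-0.96) also did not overlap. HSD17B7, which has a near-identical pseudogene that its probes may also read, measured 8.41, 9.24 and 8.10 in siBRG1 and 8.73, 10.33 and 10.70 in siControl, so that its change of -1.33 (SE 0.60) came with overlapping groups. Squalene epoxidase SQLE (-0.27), the dehydrogenase NSDHL (-0.24) and the desaturase SC5D (-0.43) overlapped. The demethylase CYP51A1 (0.23) and the reductase TM7SF2 (0.00) were not below zero. STARD4, which carries cholesterol between membranes, overlapped as well (-0.87, SE 0.40, limma adjusted p = 0.235).

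In fatty acid synthesis, 1 of 8 genes passed the test as lower in HCT 116 (4.13% of all genes). ELOVL6, which lengthens palmitate, measured 12.41, 12.66 and 12.72 in HCT 116 siBRG1 and 13.27, 13.29 and 13.53 in HCT 116 siControl. Its arrays did not overlap, and ELOVL6 fell 1.71-fold (log2 change -0.77, SE 0.19, limma adjusted p = 0.0218). ACSS2, which makes acetyl-CoA from acetate, measured 6.11, 5.68 and 5.40 in siBRG1 and 6.77, 6.99 and 7.13 in siControl. Its change of -1.23 (SE 0.43, limma adjusted p = 0.109) did not pass, and all its siBRG1 arrays lay below the median gene level. The stearoyl-CoA desaturase SCD measured 13.74, 13.88 and 13.68 in siBRG1 and 14.43, 14.64 and 15.01 in siControl, without overlap (-0.92, SE 0.58, limma adjusted p = 0.420). ACLY (-0.41), which supplies cytosolic acetyl-CoA from citrate, the elongase ELOVL5 (-0.42) and the desaturase FADS2 (-0.58) did not overlap either. The carboxylase ACACA (-0.27) and the fatty acid synthase FASN (-0.49) overlapped.

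Over all 30 genes in HCT 116, 3 passed the test as lower (SREBF2, FDPS and ELOVL6) and 0 as higher, against 4.13% of all genes called lower, 2.82% higher and 6.95% in either direction. A further 12 had an unadjusted limma p under 0.05, all lower, which made 15 of 30, against 11.3% of all genes lower and 9.14% higher at that p. The change was below zero in 27 of 30 (51.9% of all genes), with a median of -0.78 (all genes -0.01), and 18 of 30 did not overlap and were lower (13.0% of all genes). Genes of this pathway can move together on an array, as described for DLD1 below, so the 30 are not separate observations. The limma fit takes 1 spread per gene from all 12 arrays, and the median SD of the 30 genes was 0.234 in HCT 116 siBRG1 and 0.249 in HCT 116 siControl but 0.791 in DLD1 siBRG1 and 0.450 in DLD1 siControl. With the 6 HCT 116 arrays fitted alone, the same changes gave 13 of 30 genes called lower (3.06% of all genes). These were SREBF2, INSIG1, ACAT2, HMGCS1, MVK, IDI1, FDPS, MSMO1, EBP, DHCR7, ACSS2, SCD and ELOVL6, and INSIG1 then had an SE of 0.29 and a limma adjusted p of 0.0106. With the replicate number as a block in DLD1, 15 of 30 were called lower in HCT 116 (5.21%), and with a block in each line 17 (6.75%). The 12-array count was 11 when replicate 1 of DLD1 siBRG1 was left out, 9 when its replicate 3 was, and 1 without HCT 116 siBRG1 replicate 1 or 2 or HCT 116 siControl replicate 2 or 3. SREBF2 was called in 12 of 12 such fits, ELOVL6 in 8 and FDPS in 3.

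**Figure D2:**
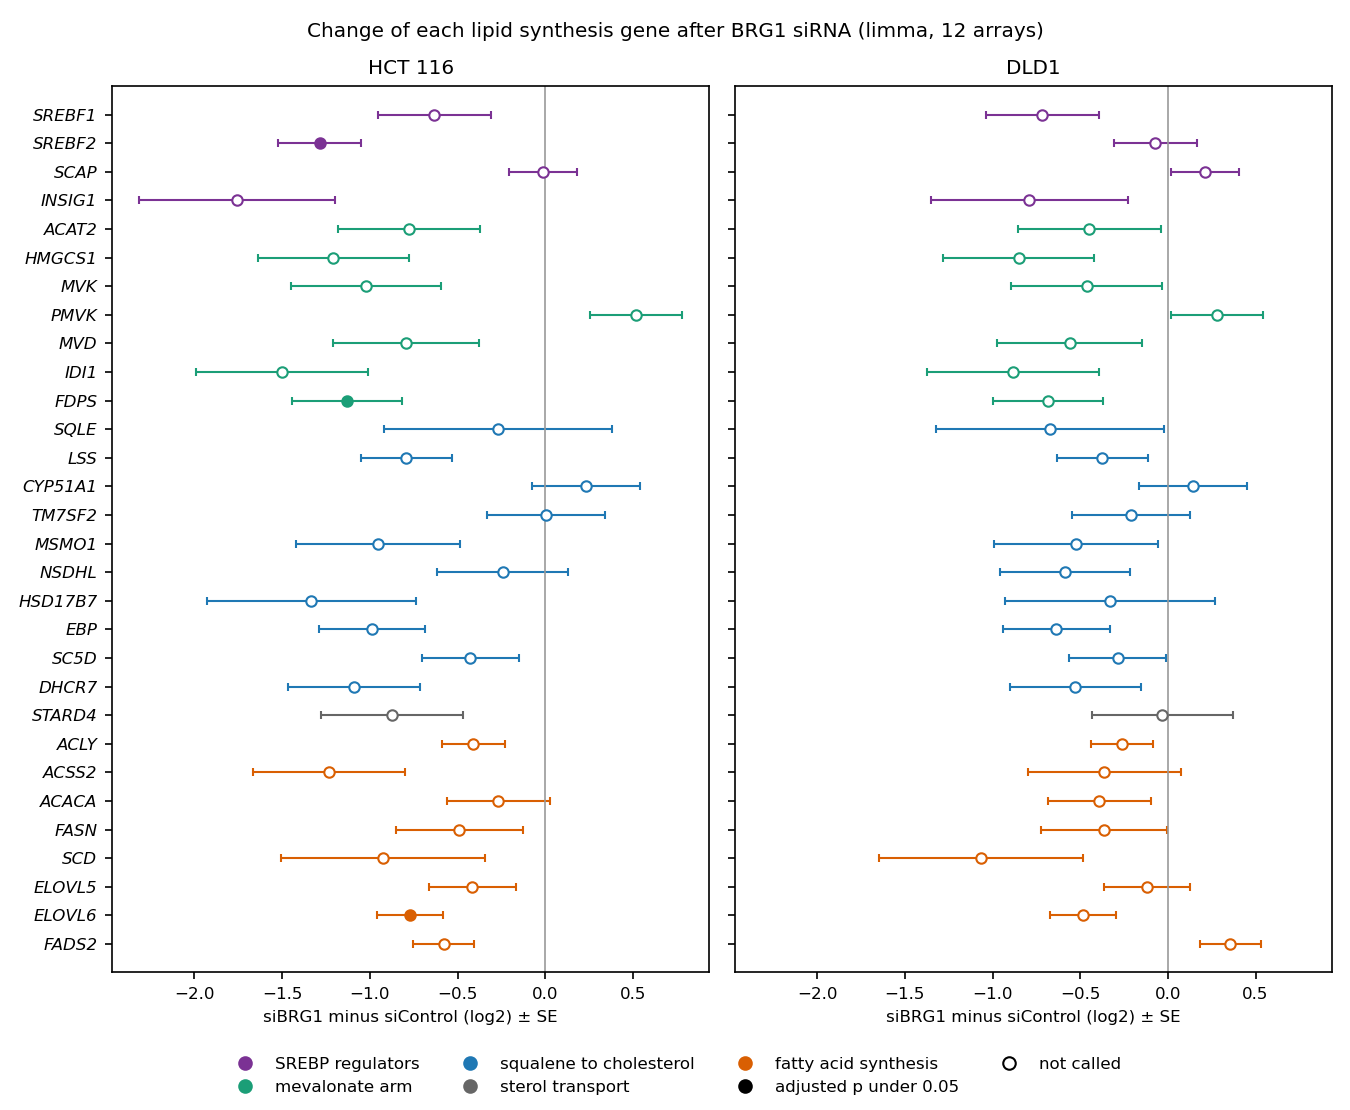
Log2 change after siBRG1 with its limma SE (x axis) for each of the 30 genes (y axis), HCT 116 in the left panel and DLD1 in the right, coloured by role and filled where the adjusted p was under 0.05. In HCT 116, 27 of 30 points lie below zero and 3 are filled, and in DLD1, 26 lie below zero and 0 are filled.

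In DLD1 cells none of the 30 genes passed the test after siBRG1 (0.130% of all genes were called lower, 0.0678% higher and 0.198% in either direction), and 3 had an unadjusted limma p under 0.05, all lower, against 4.75% of all genes lower and 5.77% higher. These were SREBF1, FDPS and ELOVL6. ELOVL6 measured 12.07, 12.45 and 12.17 in DLD1 siBRG1 and 12.94, 12.76 and 12.46 in DLD1 siControl. Its change of -0.48 (SE 0.19) had the lowest adjusted p of the 30 (limma, 0.355), and it was the 1 gene of 30 that was lower without overlap (7.19% of all genes). FADS2, the desaturase of polyunsaturated fatty acids, was the 1 gene higher without overlap (8.33% of all genes), with 10.22, 10.33 and 10.19 in siBRG1 and 9.84, 10.14 and 9.70 in siControl (change 0.36, SE 0.17). SREBF2 measured 11.54, 10.91 and 10.83 in siBRG1 and 11.42, 11.17 and 10.91 in siControl, overlapping groups with a change of -0.07 and a 95% interval of -0.58 to 0.43. Across the 30 genes the change was below zero in 26 (47.9% of all genes), with a median of -0.42 (all genes 0.01). The lowest changes, none of which passed, were those of SCD (-1.07, SE 0.58), IDI1 (-0.88, SE 0.49), HMGCS1 (-0.85, SE 0.43) and INSIG1 (-0.79, SE 0.56). The median of the 30 changes was -0.90 without DLD1 siBRG1 replicate 1 and 0.012 without DLD1 siBRG1 replicate 3.

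The spread behind these values ran through the pathway, array by array. Against each gene's group mean, the median deviation of the 30 genes was 0.86, 0.02 and -0.74 on DLD1 siBRG1 replicates 1, 2 and 3, and 0.33, 0.05 and -0.45 on DLD1 siControl replicates 1, 2 and 3. It was 0.16, -0.03 and -0.08 in HCT 116 siBRG1 and -0.20, 0.03 and 0.17 in HCT 116 siControl. In DLD1 the arrays numbered 1 were thus high and those numbered 3 low under both siRNAs, with 28 of 30 genes above the group mean on each array numbered 1, while SMARCA4 differed little among the siBRG1 arrays. SCD shows it most plainly, with 15.12, 13.83 and 11.95 in DLD1 siBRG1 and 15.55, 14.81 and 13.73 in DLD1 siControl. SQLE measured 13.44, 12.56 and 10.48 in DLD1 siBRG1 and 13.36, 13.37 and 11.77 in DLD1 siControl. INSIG1 measured 11.61, 10.94 and 8.85 in DLD1 siBRG1 and 11.79, 11.71 and 10.26 in DLD1 siControl. In each of the 3 genes, the array numbered 3 was the lowest of its group. Ranked by replicate 3 minus replicate 1 over the 17687 genes, 17 of the 30 were among the 100 lowest in DLD1 siBRG1 (SCD rank 1, SQLE rank 2, INSIG1 rank 4, MSMO1 rank 6) and 9 in DLD1 siControl (SCD rank 3, SQLE rank 12), but 0 in either HCT 116 group. The SD of 22 of 30 genes in DLD1 siBRG1 and 13 of 30 in DLD1 siControl exceeded the 90th percentile of all genes, against 4 in HCT 116 siBRG1 and 6 in HCT 116 siControl. The labels do not say what the replicate numbers stand for, and what moved with them was not tested.

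**Figure D3:**
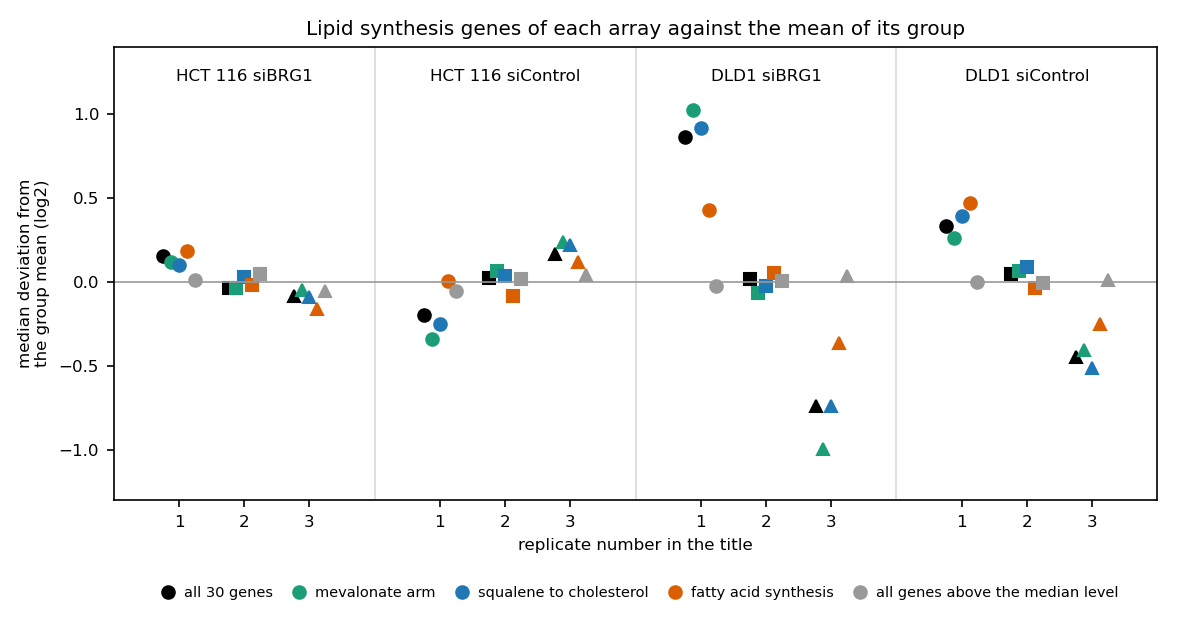
Median deviation of the genes from their group means (y axis, log2) on each of the 12 arrays, by group and replicate number (x axis), for all 30 genes, 3 of the roles and, in grey, all genes above the median level. The DLD1 arrays numbered 1 lie above and those numbered 3 below zero, at 0.86 and -0.74 for siBRG1 and 0.33 and -0.45 for siControl, while the grey points stay near zero.

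Taken number by number, the siBRG1 minus siControl differences in DLD1 had a median over the 30 genes of -0.01 for number 1, -0.51 for number 2 and -0.67 for number 3. The difference was below zero in 15, 26 and 26 of 30 genes. Among the 17 sterol enzymes it was below zero in 6, 16 and 15, with medians of 0.08, -0.64 and -1.10. Over the 30 genes number 1 thus gave no shared direction, while numbers 2 and 3 gave lower levels after siBRG1 for most genes. For number 1, the fatty acid genes ACLY (-0.21), ACSS2 (-0.04), ACACA (-0.31), FASN (-0.34), SCD (-0.44), ELOVL5 (-0.28) and ELOVL6 (-0.86) were below zero. The remaining fatty acid gene, FADS2 (0.39), was above zero. With the replicate number as a block, 0 of 30 genes passed in DLD1 (limma).

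Averaged over both lines, 6 of 30 genes passed the test as lower after siBRG1, against 4.68% of all genes, and 0 as higher, against 4.01%. They were SREBF2 (log2 change -0.68, SE 0.17, limma adjusted p = 0.0221), HMGCS1 (-1.03, SE 0.30, 0.0492), IDI1 (-1.19, SE 0.35, 0.0459), FDPS (-0.91, SE 0.22, 0.0215), EBP (-0.81, SE 0.22, 0.0305) and ELOVL6 (-0.63, SE 0.13, 0.00984), the genes whose promoters are printed above. The set holds 1 regulator, 3 enzymes of the mevalonate arm, 1 enzyme of the arm to cholesterol and 1 fatty acid elongase. Such a mean can rest on a single line. SREBF2 changed by -1.29 in HCT 116 but by -0.07 in DLD1, while the other genes of the set had changes below zero in both lines. None of the set was called in DLD1. Of 26 alternatives, ELOVL6 was called under 26, FDPS under 23, SREBF2 under 17, EBP under 16, IDI1 under 14 and HMGCS1 under 12. With the block in DLD1 alone the count was 15 (5.74% of all genes called lower), with a block in each line it was 17 (7.06%), and leaving out 1 array at a time gave 1 to 15. The 15 came without DLD1 siBRG1 replicate 1, and the 1 came without DLD1 siControl replicate 1 or HCT 116 siControl replicate 2. It was 2 without HCT 116 siBRG1 replicate 2 or 3, HCT 116 siControl replicate 3 or DLD1 siBRG1 replicate 2 or 3.

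The responses of HCT 116 and DLD1 were compared by the difference of the changes, HCT 116 minus DLD1, in which 0.334% of all genes were called. None of the 30 genes passed. At an unadjusted limma p under 0.05, 2 of 30 were lower and 0 higher, a share near that of all genes (5.47% lower and 3.52% higher). SREBF2 had a difference of -1.21 (SE 0.33, 95% interval -1.93 to -0.50, limma adjusted p = 0.188). FADS2 had a difference of -0.93 (SE 0.25, 95% interval -1.46 to -0.41, limma adjusted p = 0.162). FADS2 measured 9.94, 9.63 and 9.75 in HCT 116 siBRG1 and 10.49, 10.26 and 10.31 in HCT 116 siControl, so its arrays separated downwards in HCT 116 and upwards in DLD1, but the difference did not pass the test. For HMGCS1 the interval of the difference was -1.66 to 0.94 and for SCD -1.61 to 1.90, so these arrays could not show whether the change of either gene differed between HCT 116 and DLD1.

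Without BRG1 knockdown, HCT 116 and DLD1 arrays differed in the sterol genes. A difference of culture or array handling could not be told apart from one of the lines themselves. Within DLD1 siControl alone, replicate 3 minus replicate 1 had a median over the 30 genes of -0.83. HCT 116 siControl was lower than DLD1 siControl in 16 of 30 genes (14.0% of all genes called lower) and higher in 2 (13.6% called higher). The difference was below zero in 25 of 30 (47.0% of all genes), and the groups did not overlap in 16 genes that were lower (19.7%) and 3 that were higher (20.3%). Among the 17 sterol enzymes, 14 were lower and 0 higher, with a median difference of -1.38 (all genes 0.03). HMGCS1 measured 10.88, 11.31 and 11.65 in HCT 116 siControl and 14.35, 13.95 and 13.05 in DLD1 siControl, 5.66-fold lower (log2 difference -2.50, SE 0.43, limma adjusted p = 0.000374). ACAT2 measured 11.13, 11.13 and 10.98 in HCT 116 siControl and 13.86, 13.30 and 12.78 in DLD1 siControl (-2.23, SE 0.41, limma adjusted p = 0.000600). SC5D measured 9.61, 9.75 and 10.08 in HCT 116 siControl and 12.15, 12.22 and 11.39 in DLD1 siControl (-2.11, SE 0.28, limma adjusted p = 3.04e-05). In these 3 genes no HCT 116 siControl array reached the lowest DLD1 siControl array. TM7SF2, with 10.08, 9.78 and 10.12 in HCT 116 siControl and 12.57, 12.05 and 11.35 in DLD1 siControl, was also lower (limma adjusted p = 0.000302). HSD17B7 (-2.21), MSMO1 (-1.81), LSS (-1.75), IDI1 (-1.47), NSDHL (-1.38), DHCR7 (-1.36), MVK (-1.24), FDPS (-1.19), EBP (-1.17) and CYP51A1 (-1.05) were lower as well, and PMVK (-0.16), MVD (-0.22) and SQLE (-1.22, SE 0.65) did not pass.

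**Figure D4:**
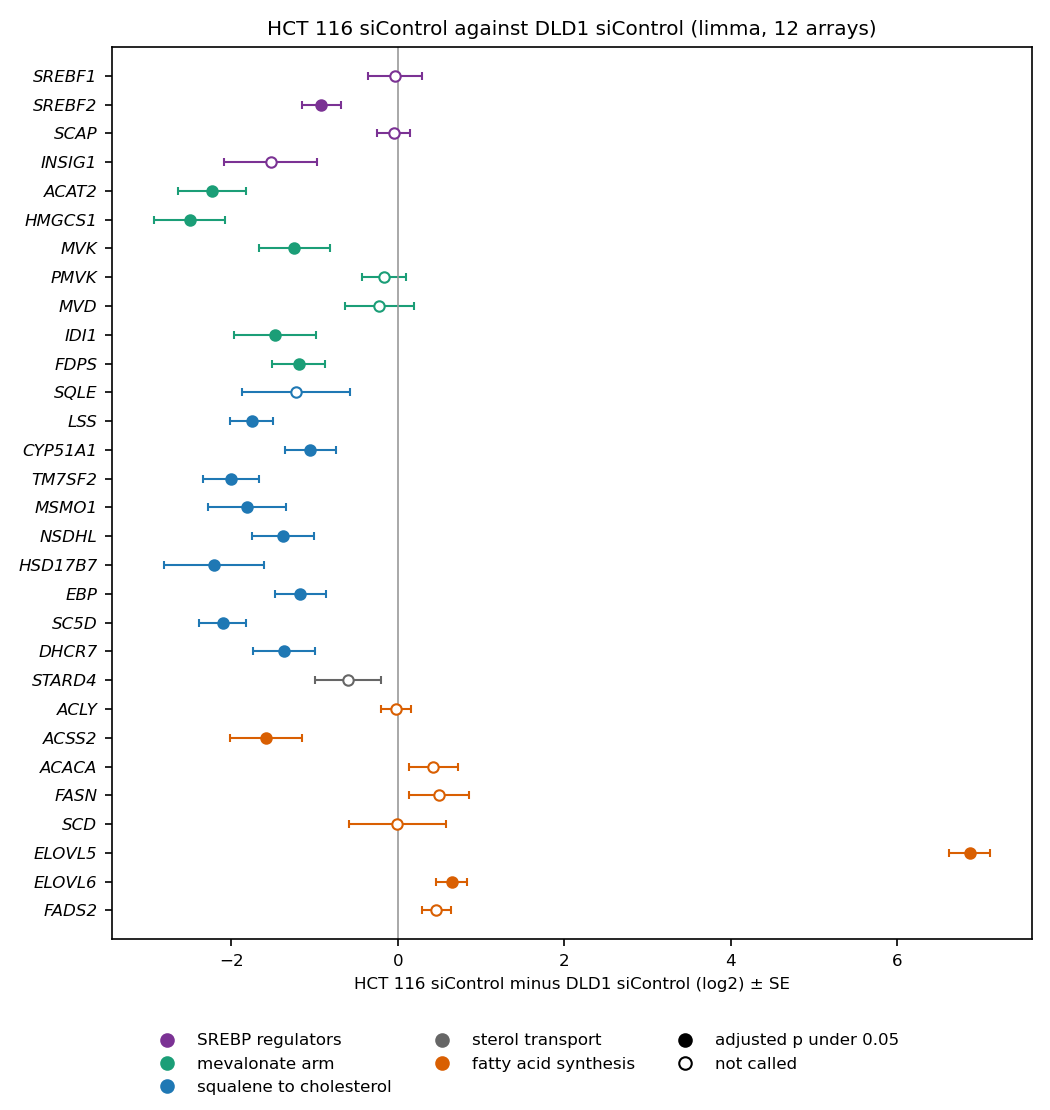
Log2 difference between HCT 116 siControl and DLD1 siControl with its limma SE (x axis) for each gene (y axis), coloured by role and filled where the adjusted p was under 0.05. Of the filled points, 16 lie below zero, 14 of them sterol enzymes, and ELOVL5 stands at 6.87.

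Among the regulators, SREBF2 was 1.89-fold lower in HCT 116 siControl than in DLD1 siControl (log2 difference -0.92, SE 0.24, limma adjusted p = 0.00837). INSIG1 did not pass (-1.53, SE 0.56, limma adjusted p = 0.0560), and SREBF1 (-0.03) and SCAP (-0.05) had intervals of -0.72 to 0.66 and -0.47 to 0.37. STARD4 did not pass either (-0.60, SE 0.40). Of the 8 fatty acid genes, 1 was lower and 2 were higher, against 14.0% and 13.6% of all genes, with a median difference of 0.44, and their direction was not tested against that of the sterol genes. ACSS2 was the lower one (-1.58, SE 0.43, limma adjusted p = 0.0124). ELOVL6 was higher in HCT 116 siControl (0.65, SE 0.19, limma adjusted p = 0.0164). ELOVL5, an elongase of polyunsaturated fatty acids, measured 13.09, 12.98 and 13.32 in HCT 116 siControl and 6.79, 5.96 and 6.02 in DLD1 siControl. Its log2 difference of 6.87 (SE 0.25, limma adjusted p = 1.47e-11) was the largest of the 30, and all DLD1 arrays lay below the median gene level. Without detection calls, how far ELOVL5 stood above background in DLD1 is not known, which makes the size of the ratio uncertain. SCD, ACLY, ACACA, FASN and FADS2 did not pass, with differences of -0.01, -0.02, 0.43, 0.49 and 0.46. Leaving out 1 array at a time gave 12 to 19 called genes in this comparison.

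Genes that stand around the pathway were counted from further lists. Over all genes in HCT 116, 4.13% were called lower and 2.82% higher after siBRG1. There, 2 of 7 further genes of the SREBP machinery fell, ERLIN2 (log2 change -0.92, SE 0.21), a membrane protein of the endoplasmic reticulum that takes part in sterol-driven degradation, and MBTPS1 (-0.76, SE 0.17), a protease that cuts SREBP in the Golgi. Of 14 further sterol and isoprenoid genes 1 fell, near the share of all genes, TMEM97 (-1.08, SE 0.28), a sterol-responsive membrane protein. Of 14 genes of sterol uptake and transport 2 fell, the lipoprotein receptors LRP8 (-2.07, SE 0.40) and SCARB1 (-1.25, SE 0.23). Of 24 further lipogenic genes 3 fell, the desaturase SCD5 (-1.54, SE 0.28), the acyl-CoA synthetase ACSL5 (-1.49, SE 0.16) and the dehydratase HACD3 (-1.12, SE 0.18). Of 9 genes of the LXR axis, which governs sterol efflux, 0 passed in HCT 116 (limma), and 0 had an unadjusted p under 0.05. No gene of these lists was called higher in HCT 116, and the limma adjusted p-values of the named ones ran from 0.000112 to 0.0301. With a block in each line, 1 lipogenic gene was called higher. At an unadjusted p under 0.05 (11.3% of all genes lower, 9.14% higher), the machinery list had 2 genes lower and 1 higher in HCT 116. The isoprenoid list had 4 lower and 2 higher, uptake 3 and 1, and lipogenesis 7 and 2. The median change in HCT 116 was 0.31 for the machinery list, -0.09 for the isoprenoid list, -0.12 for uptake, -0.26 for lipogenesis and 0.10 for the LXR axis, against -0.78 for the 30 genes and -0.01 for all genes. In DLD1 no gene of these lists passed (limma). At an unadjusted p under 0.05, which 4.75% of all genes had as lower and 5.77% as higher, the uptake list had 4 genes lower, the machinery, isoprenoid and lipogenic lists 1 each and the LXR list 0, and each of them had 1 higher. ACSL5 was the 1 gene of these lists called in the difference between HCT 116 and DLD1 (-1.23, SE 0.23, limma adjusted p = 0.0344), against 0.334% of all genes. With a block in each line it did not pass (limma adjusted p = 0.0504).

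**Figure D5:**
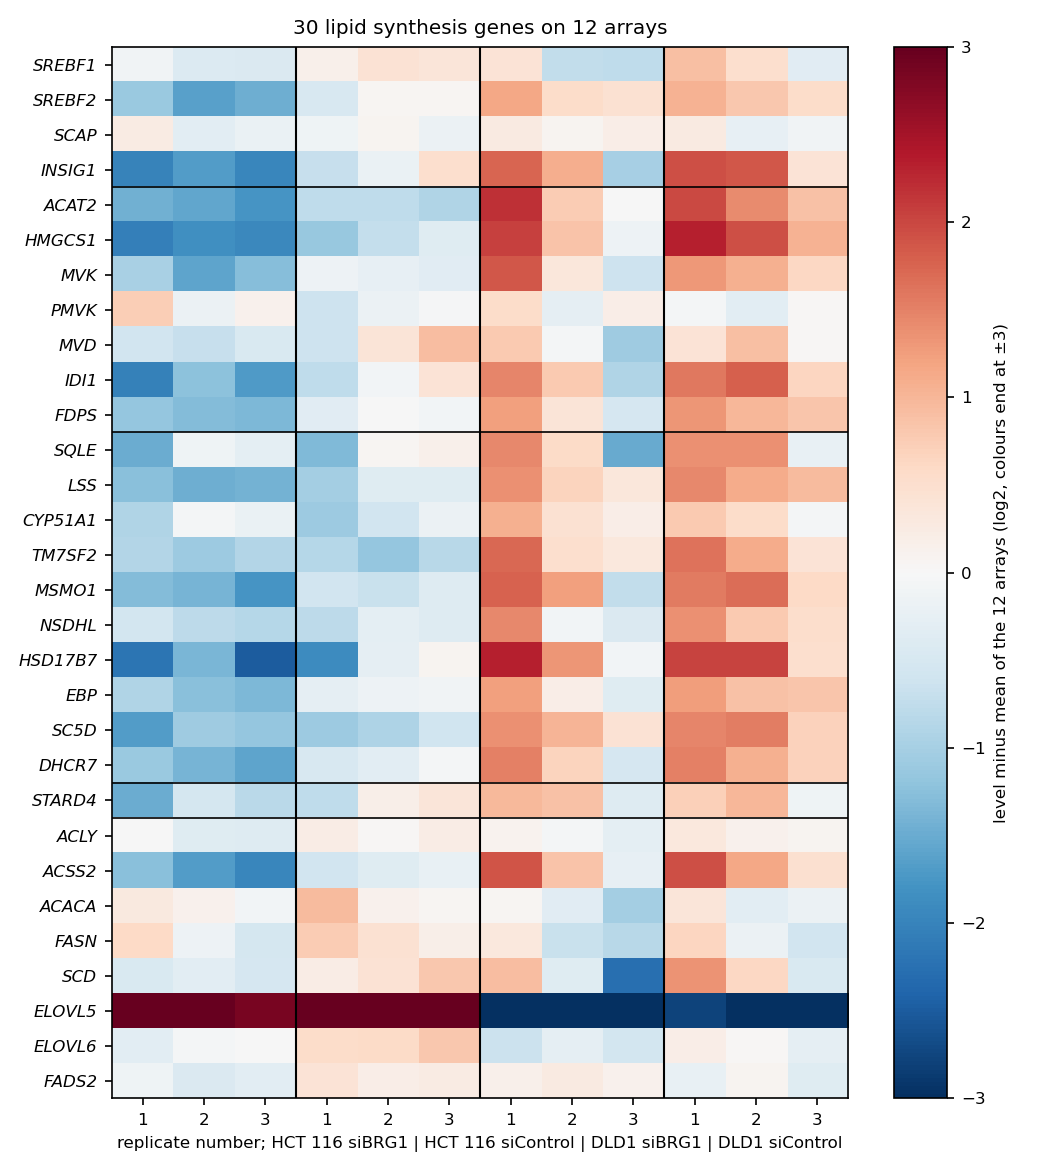
Level of each of the 30 genes minus its mean over the 12 arrays (colour, log2, ending at ±3), with genes down the page by role and arrays across by group and replicate number. Most sterol genes are low in HCT 116 siBRG1, nearer the mean in HCT 116 siControl and highest on the DLD1 arrays numbered 1, and ELOVL5 is high in both HCT 116 groups and low in both DLD1 groups.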

How the data were processed

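Single-colour Affymetrix arrays of HCT 116 and DLD1 cells were analysed from the deposited table. The submitters' processing notes name RMA and Affymetrix Power Tools as the authors' software for the deposited log2 values, without versions or a genome build. RMA removes background, makes the intensity distributions alike and combines probes, so array-wide shifts are removed and changes of dim genes are compressed. Values ran from 2.16 to 18.05, with 94 to 112 per array above 16, so the scale includes a step the labels do not name. There are no detection calls, and scan dates were not used here. The number of arrays limits the precision.

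Rows were named through the platform annotation and RefSeq (of 21448 rows, 17709 with 1 symbol, 0 with several and 3739 with none), taking the brightest row per gene, which left 17687 genes. The fit was limma 3.58.1 in R 4.3.3, with 4 group means over 12 arrays and 8 residual and 6.66 prior degrees of freedom. Benjamini-Hochberg adjustment ran over every named gene, with a call at an adjusted p under 0.05. The knockdown change (siBRG1 minus siControl) was taken in HCT 116, in DLD1, as their mean and as HCT 116 minus DLD1, and the control lines were compared as HCT 116 minus DLD1. Groups that do not overlap have every array of one below every array of the other. The code was tested on simulated data.

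Replicate numbers in the titles were checked for pairing. Deviations of same-numbered siBRG1 and siControl arrays correlated at 0.485, 0.459 and 0.291 in DLD1, taken as pairs from the data and not from the labels, and at 0.299, 0.149 and 0.0284 in HCT 116, not taken as pairs. Alternatives were the block, each line fitted alone, array weights, other filters and normalizations, and leaving out each array. Named genes were all measured members, SMARCA4, defining markers and, from each further list and line, up to 3 called genes of the largest change or otherwise the largest change. Members and lists were chosen with earlier results of these data known.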

Additional observations from a re-analysis of the deposited data

How the results depend on the processing

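In every alternative, no called gene changed direction. The count of 3 genes called after siBRG1 in HCT 116 was the least stable result. It was 13 with HCT 116 fitted alone, 11 with array weights, 5 among genes above the median level, and 1 to 11 with 1 array left out. With the replicate number as a block it was 5 (number shared by both lines), 17 (block within each line) and 15 (block in DLD1 only, chosen after seeing the data), and without the DLD1 pair numbered 1, 2 or 3, also chosen after seeing the data, it was 10, 2 and 10. The 6 genes called on average became 11 with array weights, 1 to 15 with 1 array left out, 17 with the block within each line, 15 with the block in DLD1 only, and 15, 1 and 4 without the DLD1 pair numbered 1, 2 or 3. The block added no called gene in DLD1. The count of 0 in the difference of responses became 1 with array weights, and the 0 in DLD1 held under all 27 alternatives. The median change in DLD1 ran from -0.90 to 0.012 with 1 array left out. The 18 genes called between the control lines ranged from 12 to 20. The fits of HCT 116 alone and with the block differ from the 12-array fit in how the DLD1 spread enters, but not only in that. The block within each line also takes up differences between the HCT 116 replicate numbers. For STARD4 in HCT 116 the SE was 0.30 with the block in DLD1 only and 0.17 with the block within each line. The cause of these and the other shifts was not tested. With 3 arrays a group and no detection calls, changes of low genes are uncertain.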

Other observations

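Fatty acid oxidation, the mitochondrial breakdown of the same acyl chains, held genes that fell after siBRG1 in HCT 116. Of 21 measured genes 3 fell and 0 rose, against 4.13% and 2.82% of all genes, with a list median of -0.33 (all genes -0.01). HADH, which encodes a short-chain hydroxyacyl-CoA dehydrogenase, averaged 7.81 in HCT 116 siBRG1 and 9.93 in HCT 116 siControl (log2 change -2.11, SE 0.31, limma adjusted p = 0.00101), a change larger in size than that of any of the 30 synthesis genes. CPT1A and CPT2, the carnitine palmitoyltransferases that bring long chains into mitochondria, fell by 1.11 (SE 0.30, limma adjusted p = 0.0366) and by 0.86 (SE 0.25, limma adjusted p = 0.0486). In DLD1 none of the 21 genes passed the test. There 14 of 21 had a change above zero (9207 of all 17687 genes) and the list median was 0.15 (all genes 0.01). In the difference of the changes, HCT 116 minus DLD1, 0 of the 21 genes passed (0.334% of all genes), so a different response of the lines was not shown. At an unadjusted limma p under 0.05, 5 of the 21 were lower and 0 higher, against 5.47% and 3.52% of all genes. The list median of the difference was -0.44 (all genes -0.03). HADH averaged 10.1 in DLD1 siBRG1 and 11.2 in DLD1 siControl, without overlap (log2 change -1.07, SE 0.31, limma adjusted p = 0.194). Averaged over both lines, HADH was called lower after siBRG1 (-1.59, SE 0.22, limma adjusted p = 0.000789).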
